A study of Mus musculus with 18 samples.

Results

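The 76 genes described here encode potassium channel subunits and their close regulators in the arcuate nucleus of female mice. They were chosen as every gene whose symbol starts with Kcn and whose mean over 18 libraries was at least 0.5 FPKM, a fragment count divided by transcript length and by the library's total. The tables listed 95 such symbols among 23235, 1 of them the noncoding Kcnq1ot1, and 19 fell below that level. The genes just inside were Kcnk7 at 0.522, Kcnrg at 0.585 and Kcnh7 at 0.685 FPKM, and those just outside were Kcne4 at 0.431 and Kcng4 at 0.424 FPKM.

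All mice were ovariectomized females of the strain labelled C57/BL and received oil or estradiol benzoate (E2). The hormone dose was 250 ng on day 5 and 1500 ng the next day, day 6. The arcuate nucleus was dissected 24 h after the second injection and a 1 h fast, and total RNA was sequenced. Oil and E2 groups were made in wild-type mice (WT), in mice lacking estrogen receptor α (ERKO) and in KIKO mice, which gives 6 groups of 3 libraries (n = 3 throughout). As the name is generally used, KIKO mice carry 1 knocked-in Esr1 allele whose receptor cannot bind estrogen response elements, over a null allele. Ages, the making of the alleles and the number of animals behind each library are not given in the sources used here, so every p-value measures the spread between libraries, which may be technical.

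Potassium channels let potassium leave the cell, and so set the resting potential, end action potentials and space them in time. A channel is built from pore-forming α subunits, which in neurons fall into voltage-gated (Kv), calcium-activated, inwardly rectifying (Kir) and tandem-pore leak (K2P) families, and from auxiliary subunits that change gating or carry the channel to the membrane. In arcuate neurons the M-current, ATP-sensitive channels, G protein-gated channels and calcium-activated channels are known to govern firing, and estradiol is known to alter several of these currents.

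Kcnk2, the gene of the leak channel TREK-1, was the only Kcn gene past the threshold after E2 in WT, so its start regions are shown. It lies on chromosome 1 (GRCm38, chr1:189207930-189402273, minus strand), and RefSeq (GRCm38.p6) gives it 4 windows that run from 250 bases before to 50 after a start. In all, 54 of the 76 genes had such windows, 77 together. They were searched on both strands for the estrogen response element, which is GGTCA followed after any 3 bases by TGACC, for its half-site GGTCA, which also stands within the full element, and for TGACTCA, an AP-1 site, at which the receptor is known to act without binding the element. Below are the 2 Kcnk2 windows that held a match, 5′ to 3′ on the gene's strand. Capitals mark the half-site, read as TGACC, in the first (chr1:189343304-189343603) and the AP-1 letters in the second (chr1:189344143-189344442).
Kcnk2 half-site window: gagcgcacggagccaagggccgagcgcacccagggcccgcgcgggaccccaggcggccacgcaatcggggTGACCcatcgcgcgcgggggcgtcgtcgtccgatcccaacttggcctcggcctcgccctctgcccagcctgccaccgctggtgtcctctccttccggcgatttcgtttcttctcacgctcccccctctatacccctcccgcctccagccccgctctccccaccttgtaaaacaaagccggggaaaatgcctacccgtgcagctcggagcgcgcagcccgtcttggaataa
Kcnk2 AP-1 window: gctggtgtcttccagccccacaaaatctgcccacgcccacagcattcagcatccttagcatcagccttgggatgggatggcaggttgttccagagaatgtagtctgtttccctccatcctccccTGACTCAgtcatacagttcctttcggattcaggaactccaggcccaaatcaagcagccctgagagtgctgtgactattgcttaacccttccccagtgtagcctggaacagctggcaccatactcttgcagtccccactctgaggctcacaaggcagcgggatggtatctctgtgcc
The half-site began at position -180 from the start and the AP-1 letters at position -126. The full element stood in 0 of the 77 Kcn windows and in 0.0700% of all 32851 windows. The half-site stood in 20 Kcn windows (26.0%), against 40.5% of all windows. AP-1 letters stood in 2 (2.60%), those of Kcnip3 and Kcnk2, against 5.20% of all. A match is a string of letters, and these windows cover only the bases next to each start.

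The library ERKO E2 3 stood apart from the other 17. Over the 14774 genes tested it correlated with them at 0.919 to 0.954, against 0.963 to 0.995 among the others, and over the Kcn genes at 0.843 to 0.932 against 0.931 to 0.996. It was the highest or the lowest of 18 libraries for 41 Kcn genes (53.9%), against 57.2% of all genes tested. Kcnk9, a TASK-3 leak channel, was listed at 0 there and at 5.25 to 22.4 FPKM elsewhere. Kcna3 was at 0.135 FPKM against 2.19 to 7.68, and Kcnmb4, a BK channel β subunit, at 76 FPKM against 25.8 to 41.8. In the same library the summed markers of the paraventricular and supraoptic nuclei reached 20512 FPKM, against 1774 to 7316 FPKM in the other 17. That list was split. Within ERKO E2, Avp and Oxt reached 13107 and 7392 FPKM. Sim1 had its highest group mean there, at 1.47 to 1.82 FPKM against 0.608 to 1.69 FPKM in the other groups. Crh ran from 0.144 to 0.356 FPKM in ERKO E2, against 0 to 1.21 FPKM in the other groups. Otp ran from 11.7 to 50.1 FPKM in ERKO E2, against 31.0 to 67.7 FPKM in the other groups. Summed ependymal markers were 345 FPKM in ERKO E2 3, against 81.5 to 170 FPKM in the other 17. The ependymal list was also split. Rarres2, Ccdc153 and Tmem212 reached 189, 67.6 and 61.1 FPKM within ERKO E2. Foxj1 ran from 19.5 to 27.9 FPKM in ERKO E2, against 17.5 to 33.2 FPKM in the other groups. The part of these lists in the results was not tested.

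Depth was inferred from the deposited confidence bounds, and relative depth ran from 0.728 in ERKO E2 3 to 1.5 in KIKO oil 2. Median inferred fragments per Kcn gene ran from 8.83 to 8786, with a median of 232, and 3 genes lay under 20. Esr1 averaged 8.05 ± 3.39 FPKM (SD) in WT oil and 2.09 FPKM in ERKO oil (log2 change -1.49 ± 0.32, SE, adjusted p = 0.0367). Arcuate neuron markers (Pomc, Agrp, Npy, Kiss1, Tac2, Ghrh, Th and Cartpt) were present in all groups. Their sum was highest in ERKO E2 3, at 5762 FPKM, and ran from 2432 to 5214 FPKM in the other libraries.

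Kcn genes were expressed over a wide range. Their FPKM summed to 786 to 888 per library. Of the 76, 67 had a mean of at least 1 FPKM, 28 of at least 10, 14 of at least 20 and 1, Kcnj10, of at least 50. FPKM corrects for transcript length, so levels of different genes can be set side by side. The plot of levels by subfamily shows the genes behind each sum. In subfamilies of more than 1 gene, the highest gene made up from 28.8% (Kcnip) to 93.8% (Kcnt) of the sum.

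**Figure D1:**
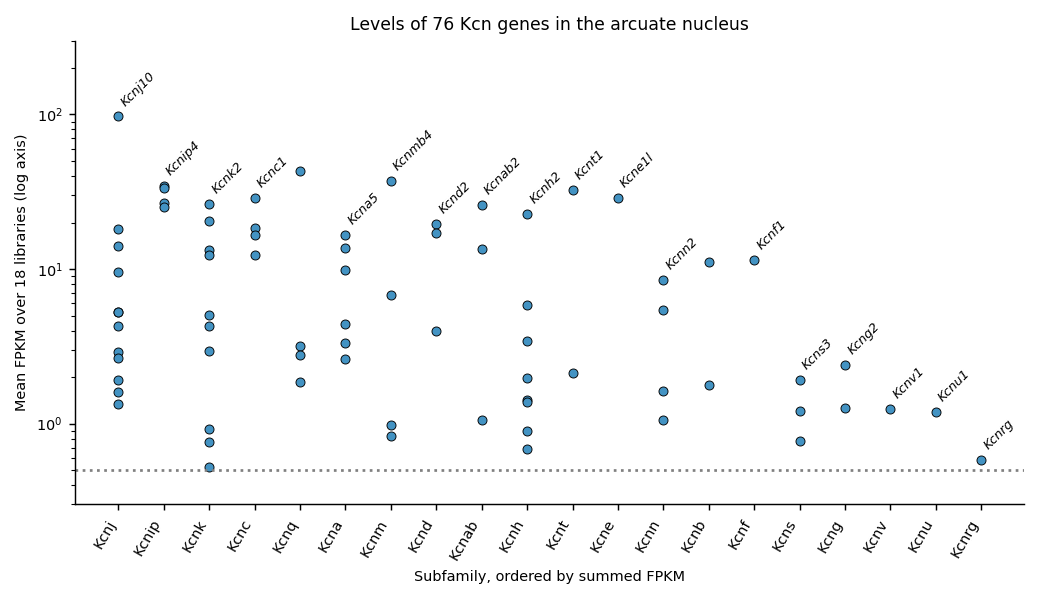
Mean FPKM over 18 libraries (log axis) of each of the 76 Kcn genes, in columns by subfamily ordered by summed FPKM; each point is a gene, the highest gene is named in most columns, and the dotted line is the 0.5 FPKM limit. Kcnj10 stands highest at 97.1 FPKM, and Kcnmb4 holds most of its subfamily's sum.

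Inward rectifiers (Kcnj, 12 genes) had the highest sum, 164 FPKM, of which Kcnj10, the Kir4.1 channel known from astrocytes and oligodendrocytes, made up 59.1%. Kv4-binding calcium sensors (Kcnip, 4 genes) followed at 120 FPKM, with all 4 at 25.3 to 34.6 FPKM. Leak channels (Kcnk, 10 genes) summed to 86.8 FPKM, led by Kcnk2 at 26.4, Kcnk1 at 20.3, Kcnk9 at 13.2 and Kcnk3 at 12.3 FPKM. The fast Kv3 channels (Kcnc, 4 genes) summed to 76.5 FPKM, led by Kcnc1 at 29.0.

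Among M-current genes, Kcnq3 and Kcnq5 stood at 3.18 and 1.85 FPKM. Kcnmb4 reached 37.2 FPKM against 6.77 FPKM for Kcnma1, the pore of the BK channel. Kcnt1, a sodium-activated channel, made up 93.8% of its pair at 32.5 FPKM. Other leading genes were Kcne1l (28.9 FPKM), Kcnab2 (25.9), Kcnh2 (22.9), Kcnd2 (19.6), Kcna5 (16.6), Kcnf1 (11.4) and Kcnn2 (8.44). The silent Kv subunits other than Kcnf1 were low, with Kcng2 at 2.40, Kcns3 at 1.92 and Kcnv1 at 1.24 FPKM. So were Kcnu1 at 1.20 FPKM and Kcnrg, a regulator of Kv channels and no pore subunit, at 0.585 FPKM.

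These sums were compared over the 6 groups. The Kcnj sum ran from 159 to 178 FPKM over 5 groups and was 145 ± 28.7 in ERKO E2, or 162 without ERKO E2 3. Kcnk sums were 93.8 ± 14.5 in WT oil, 93.8 ± 6.16 in WT E2, 78.3 ± 2.40 in KIKO oil, 86.2 ± 4.23 in KIKO E2, 81.8 ± 1.87 in ERKO oil and 86.7 ± 5.99 FPKM in ERKO E2. Kcnt sums ran from 28.8 ± 2.56 in WT oil to 39.5 ± 4.11 in KIKO E2. The Kcne sum, which is Kcne1l alone, ran from 20.7 ± 0.746 in ERKO oil to 40.5 ± 9.19 FPKM in WT oil.

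Few Kcn genes passed the threshold (adjusted p under 0.05 by limma over 14774 genes) in any comparison. After E2, 1 of 76 changed in WT, upward (0.785% of all genes passed, 0.602% upward; quantile normalization gave 1 upward and 1 downward), 0 in KIKO (0.00677%) and 0 in ERKO (0%). Against WT oil, 0 differed in KIKO oil (0.0135%) and 1 in ERKO oil, lower (1.43%, 0.684% lower). Against WT E2, 3 differed in KIKO E2 (0.948%), of which 2 were higher (0.203%) and 1 lower (0.745%), and 0 in ERKO E2 (1.3%). The E2 response differed from that of WT for 0 genes in KIKO (0.135%) and 0 in ERKO (0.278%). At an unadjusted p under 0.05, limma gave 7 Kcn genes for E2 in WT (10.3% of all genes), 2 in KIKO (0.948%) and 4 in ERKO (7.23%). It gave 7 in KIKO oil (10.1%), 15 in ERKO oil (21.7%), 9 in KIKO E2 (8.98%) and 12 in ERKO E2 (11.5%). For the difference of response it gave 8 in KIKO (4.91%) and 9 in ERKO (12.7%).

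Some of these counts were higher without ERKO E2 3 in the fit. Without it, 3 Kcn genes passed for E2 in WT (2.69% of all genes), 14 in ERKO oil (22.5%), 4 in KIKO E2 (4.03%) and 4 in ERKO E2 (8.7%), and 0 in the other 5 comparisons (0.00677% for each of KIKO and ERKO E2, 1.81% for KIKO oil, and 0.284% and 0.426% for the response differences). The 14 in ERKO oil were Kcna2, Kcnab1, Kcnip4 and Kcnma1, which were higher (11.9% of all genes), and Kcnc4, Kcne1l, Kcnh2, Kcnip3, Kcnj4, Kcnk3, Kcnk10, Kcnk12, Kcnk13 and Kcnmb4, which were lower (10.5%). These 14 are 18.4% of the Kcn genes.

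Without regard to direction, the median size of the log2 change over the 76 genes was 0.11 for E2 in WT, 0.10 in KIKO and 0.18 in ERKO, beside 0.13, 0.06 and 0.18 over all genes tested. Changes of single genes ran from -0.82 to 0.65 in WT, from -0.57 to 0.56 in KIKO and from -1.17 to 0.61 in ERKO. Without ERKO E2 3 the median size in ERKO was 0.10 and the changes ran from -0.23 to 0.47. Rises and falls stood side by side, and signed medians with E2 were -0.04 (WT), 0.03 (KIKO) and -0.01 (ERKO), beside 0.01, 0.01 and -0.03 over all genes. The ERKO value was 0.06 without ERKO E2 3 and 0.07 after quantile normalization. For KIKO E2 against WT E2 the signed median was 0.11, beside 0.01 over all genes. It was 0.01 without KIKO E2 2, 0.04 without WT E2 1 and 0.04 after quantile normalization. The 95% interval of the change lay within ±1 on the log2 scale for 70 of 76 genes for E2 in WT, 71 in KIKO and 63 in ERKO, and within ±0.5 for 34, 40 and 33. For the difference of response it lay within ±1 for 53 genes in KIKO and 55 in ERKO.

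**Figure D2:**
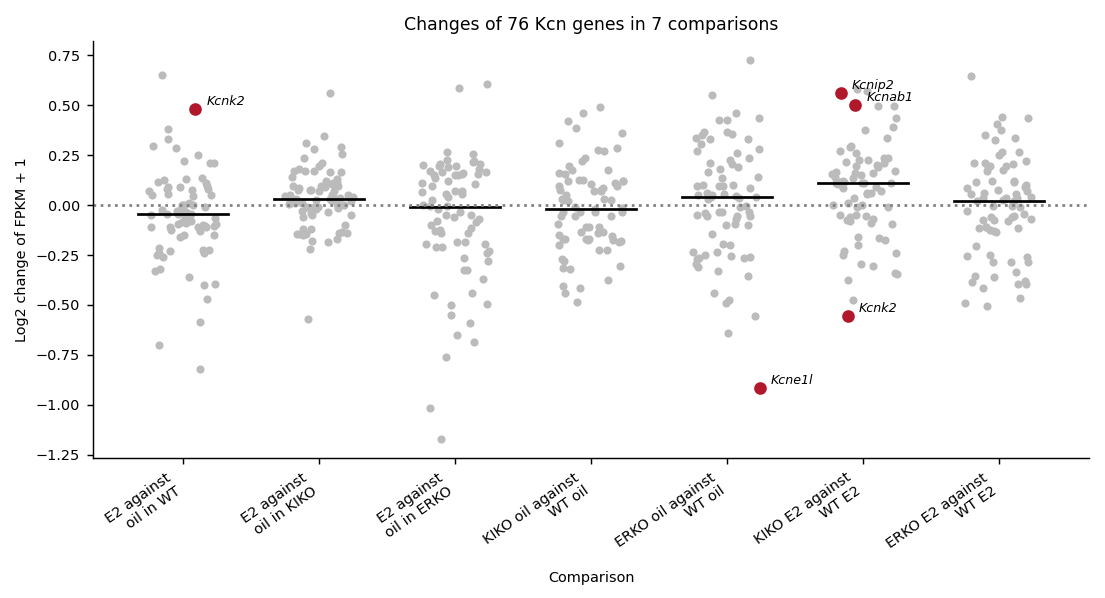
Log2 change of FPKM + 1 of the 76 Kcn genes in the 7 comparisons between 2 groups; each point is a gene, the bar is their median, and red points passed the threshold of 0.05. Red points are Kcnk2 in WT, Kcne1l in ERKO oil, and Kcnip2, Kcnab1 and Kcnk2 in KIKO E2.

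Kcnk2, a mechanosensitive and lipid-sensitive leak channel, rose after E2 in WT mice. WT oil libraries held 23.8, 23.0 and 29.4 FPKM and WT E2 libraries 36.2, 36.4 and 34.5 FPKM. All 3 E2 libraries lay above all 3 oil libraries. The log2 change was 0.48 ± 0.10 (adjusted p = 0.0366, and 0.00496 without ERKO E2 3 in the fit). It was not past the threshold when WT oil 1, WT oil 2, WT E2 1, WT E2 2 or WT E2 3 was left out in turn, with adjusted p up to 0.150, nor in a fit of only the WT groups (0.166).

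Kcnk2 stayed below that level in both mutants. KIKO libraries held 22.5, 22.1 and 22.4 FPKM in oil and 25.0, 21.8 and 25.2 FPKM after E2. ERKO libraries held 25.7, 24.7 and 23.3 FPKM in oil and 24.3, 25.2 and 30.4 FPKM after E2, the last in ERKO E2 3. Every mutant library lay below every WT E2 library. Changes with E2 were 0.10 ± 0.10 in KIKO and 0.10 ± 0.10 in ERKO, with adjusted p of 1 and 0.589, and the ERKO change was 0.01 without ERKO E2 3.

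Under E2, Kcnk2 was lower in KIKO than in WT (log2 change -0.56 ± 0.10, adjusted p = 0.0132). ERKO E2 against WT E2 gave -0.42 ± 0.10 (adjusted p = 0.0630), and -0.51 ± 0.09 (0.00499) without ERKO E2 3. The KIKO call was lost without WT E2 1, WT E2 2 or KIKO E2 2, with adjusted p up to 0.0985. The difference of the E2 response from that of WT was -0.39 ± 0.14 in KIKO (adjusted p = 0.823) and -0.38 ± 0.14 in ERKO (0.314), and neither passed. These comparisons share the WT E2 libraries. Annotated exons of A430027H14Rik on the opposite strand overlap Kcnk2, and whether strand was kept is not given in the sources used here.

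**Figure D3:**
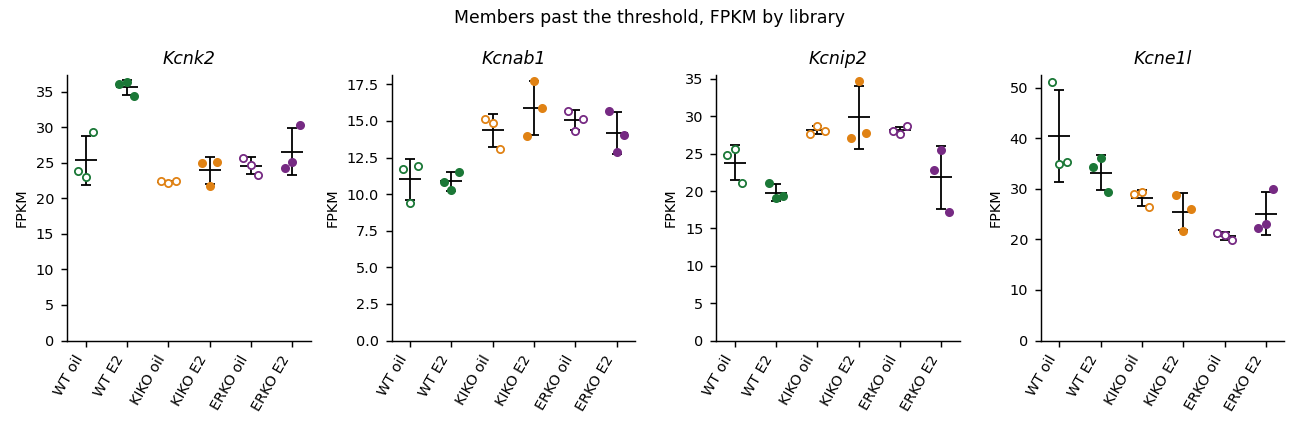
FPKM in each library for the 4 Kcn genes past the threshold in at least 1 comparison; open points are oil and filled points E2, with the group mean (bar) and SD (whiskers, n = 3) on axes from 0. For Kcnk2 the 3 WT E2 libraries sit above the other 15, and for Kcne1l the 3 ERKO oil libraries sit at 19.9 to 21.3 FPKM.

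Sums of some marker lists differed between the same WT groups without overlap. Summed arcuate neuron markers ran from 4449 to 5214 FPKM in WT oil and 2979 to 3544 FPKM in WT E2, with 2 of 8 (Kiss1 and Tac2) called lower and none at 0. That list was split. Group means of Agrp (179 to 286 FPKM), Ghrh (127 to 175) and Npy (915 to 1014) went up from WT oil to WT E2. Those of Pomc, Cartpt, Th, Kiss1 and Tac2 went down. Oligodendrocyte precursor markers ran from 41.0 to 51.0 against 31.8 to 37.3 FPKM, with 1 of 4 (Olig2) lower and none at 0. Sums of the astrocyte (797 to 989 against 709 to 809 FPKM) and oligodendrocyte lists (1398 to 1895 against 1056 to 1456 FPKM) overlapped, with 0 of 7 called in each and none at 0. Pan-neuronal sums also overlapped (1251 to 1361 against 1097 to 1265 FPKM), with 1 of 8 (Nefm) lower and none at 0. The part of these cells in the Kcnk2 result was not tested. In bulk tissue, fewer cells of a type and less RNA per cell cannot be told apart.

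Other leak channel genes differed between the WT groups short of the threshold. Kcnk10, the TREK-2 channel closest in kind to Kcnk2, held 4.17, 4.36 and 5.23 FPKM in WT oil and 2.20, 2.05 and 2.21 FPKM in WT E2, with no overlap. Its log2 change was -0.82 ± 0.21 (adjusted p = 0.0885), and 0.00367 without ERKO E2 3 in the fit. KIKO libraries held 2.67 to 3.74 FPKM in oil and 2.40 to 2.99 after E2, and ERKO oil libraries 2.38 to 3.61 FPKM. Kcnk4, the TRAAK channel of the same group, averaged 0.718 and 0.726 FPKM in WT oil and WT E2.

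Kcnk12, a THIK-2 channel, held 6.20, 7.23 and 3.57 FPKM in WT oil and 2.86, 3.63 and 2.54 FPKM in WT E2, which overlapped (log2 change -0.70 ± 0.20, adjusted p = 0.151). ERKO libraries held 2.50, 3.73 and 3.3 FPKM in oil and 4.17, 5.39 and 6.31 FPKM after E2. The difference of response was 1.29 ± 0.28 (adjusted p = 0.0919), and of 19 alternatives it passed only without WT oil 3 (0.00870). The WT change also passed only without that library (0.0181). Kcnk7, a subunit not known to form a channel by itself, held 0.163, 0.266 and 0 FPKM in WT oil and 0.903, 0.375 and 1.19 FPKM in WT E2 (0.65 ± 0.16, adjusted p = 0.0853, and 0.0449 without ERKO E2 3). Inferred fragments were 13, 5 and 18 in WT E2, and no WT oil library gave an estimate. Kcnk7 met the 0.5 FPKM limit, at 0.522, with the help of WT E2, where its group mean was highest (0.821).

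Kcnk1, the TWIK-1 leak channel, was nearly level, with group means of 18.9 to 21.5 FPKM. Kcnk3, the TASK-1 acid-sensitive leak channel, averaged 15.1 ± 2.15 FPKM in WT oil, 10.8 ± 0.568 in KIKO oil and 10.4 ± 1.43 in ERKO oil. Both mutant groups lay below WT oil in every library, at log2 changes of -0.44 and -0.49 ± 0.15 (adjusted p = 0.317 and 0.0977), and the second passed without ERKO E2 3 in the fit (0.0235). Kcnk9 held 5.25, 14.4 and 22.4 FPKM in WT oil, the widest span of the leak genes there, and its changes had an SE of 0.84. Kcnk13, a THIK-1 channel, held 6.25, 5.77 and 5.63 FPKM in WT oil and 4.42, 4.04 and 3.79 in ERKO oil, without overlap (-0.44 ± 0.11, adjusted p = 0.0554, and 0.0110 without ERKO E2 3).

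**Figure D4:**
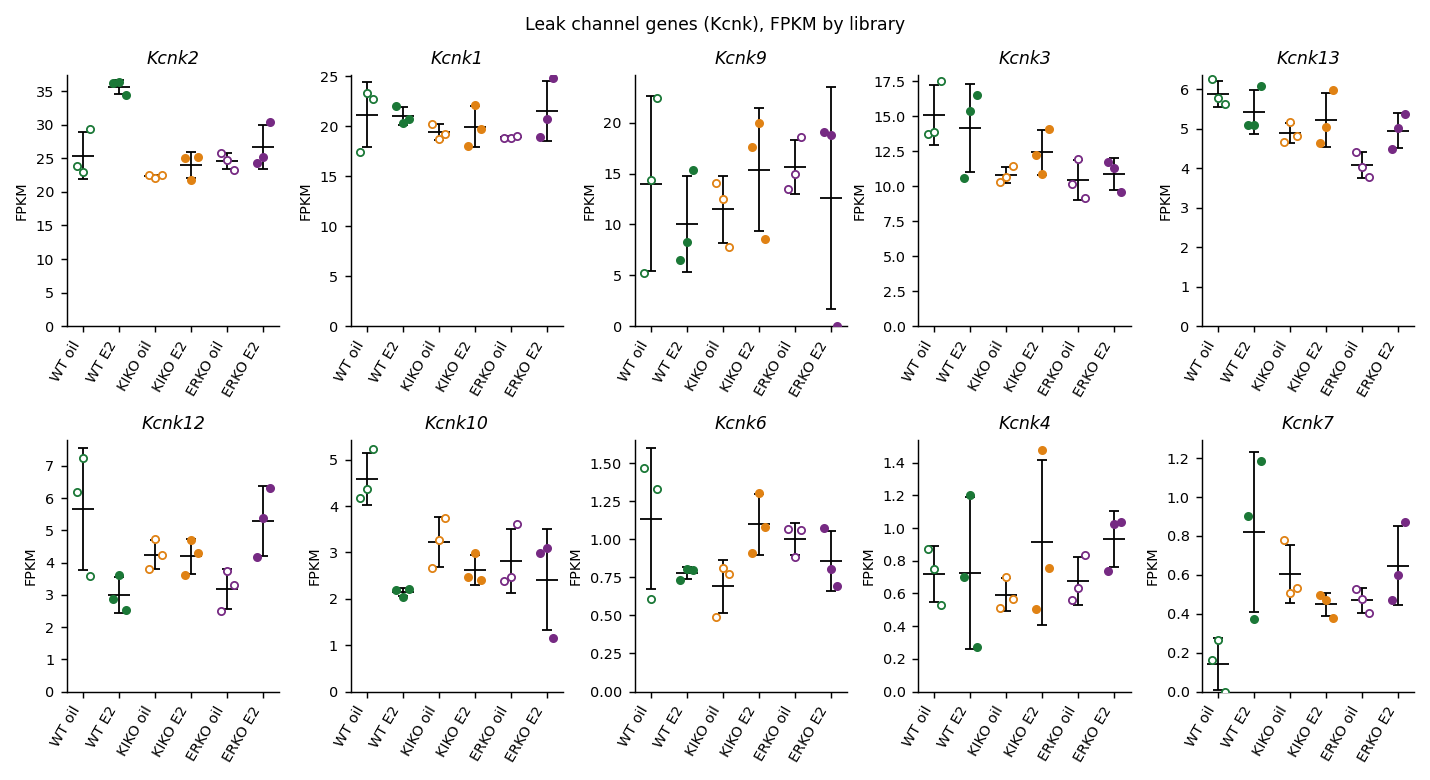
FPKM by library of the 10 leak channel genes; open points are oil and filled points E2, with group mean (bar) and SD (whiskers, n = 3). Kcnk2 is high and Kcnk10 low in the 3 WT E2 libraries relative to WT oil, while Kcnk1 lies between 17.4 and 24.8 FPKM in all libraries and Kcnk9 spreads widely.

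In KIKO and ERKO mice, no Kcn gene passed the threshold after E2. In KIKO the smallest p belonged to Kcnh3, a Kv12.2 channel, whose oil libraries held 0.691, 0.523 and 0.590 FPKM and whose E2 libraries held 1.03, 2.73 and 0.752 FPKM. KIKO E2 2 was highest, and the groups did not overlap (log2 change 0.56 ± 0.21, adjusted p = 1). Kcnf1, a silent Kv subunit (0.28 ± 0.12), and Kcnk6, a TWIK-2 channel (0.31 ± 0.16), came next. Oil and E2 libraries did not overlap for 5 Kcn genes in KIKO (7.41% of all genes), 8 in WT (15.8%) and 10 in ERKO (12.3%). Against WT oil, libraries did not overlap for 19 in KIKO (21.9%) and 29 in ERKO (39.3%), and against WT E2 for 15 in KIKO (21.9%) and 14 in ERKO (11%).

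In ERKO the 3 smallest p belonged to Kcnip2 (log2 change -0.37 ± 0.12), Kcnk12 (0.59 ± 0.20) and Kcnmb4 (0.61 ± 0.22), all with adjusted p = 0.473. Kcnmb4 held 25.8, 31.6 and 31.4 FPKM in ERKO oil and 34.5, 35.4 and 76 FPKM in ERKO E2, without overlap and with ERKO E2 3 the highest. Without ERKO E2 3 the changes of Kcnip2, Kcnk12 and Kcnmb4 were -0.21, 0.47 and 0.24, each with adjusted p = 1.

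Kcne1l, also called Kcne5, encodes a single-span subunit known to restrain KCNQ1 channels and lies on chromosome X. WT oil libraries held 51.1, 35 and 35.4 FPKM and ERKO oil libraries 21.3, 20.9 and 19.9 FPKM. The groups did not overlap, with WT oil 1 the highest of 18. Kcne1l was lower in ERKO oil (log2 change -0.91 ± 0.15, adjusted p = 0.0192), and -0.74 without WT oil 1, where the call held. It was lost without any 1 of the ERKO oil libraries, with adjusted p up to 0.112. Kcnq1 itself was below the level limit, at 0.273 FPKM.

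Mean Kcne1l was also lower than WT in the other mutant groups, short of the threshold. KIKO oil libraries held 28.9, 29.4 and 26.5 FPKM (-0.48 ± 0.15 against WT oil, adjusted p = 0.265). Under E2, WT libraries held 34.3, 36.1 and 29.3 FPKM, KIKO libraries 28.8, 21.6 and 26.1 FPKM (-0.37, 0.428) and ERKO libraries 22.3, 23.1 and 29.9 FPKM (-0.40, 0.290), the last of which overlapped WT. Without ERKO E2 3, the last became -0.52 ± 0.14 (adjusted p = 0.0341).

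Marker sums that differed without overlap between ERKO oil and WT oil were those of arcuate neurons (2821 to 2919 against 4449 to 5214 FPKM, 1 of 8 called, Th), astrocytes (702 to 770 against 797 to 989 FPKM, 1 of 7, Gfap), oligodendrocytes (1166 to 1343 against 1398 to 1895 FPKM, 0 of 7), oligodendrocyte precursors (32.4 to 35.8 against 41.0 to 51.0 FPKM, 1 of 4, Olig2), tanycytes (167 to 201 against 215 to 260 FPKM, 0 of 6) and the paraventricular and supraoptic nuclei (1774 to 4331 against 4497 to 7316 FPKM, 0 of 4 tested). All called markers were lower, and Crh was listed at 0 in all WT oil libraries. The astrocyte list was split. Group means of Gfap (299 to 142 FPKM), Aqp4, Aldh1l1, S100b and Gja1 (104 to 103) went down from WT oil to ERKO oil. Those of Slc1a3 (179 to 203) and Slc1a2 (117 to 138) went up. Means of Col25a1 among tanycyte markers, and of Sim1 and Crh among those of the nuclei, also went up. Pan-neuronal sums overlapped (1216 to 1292 against 1251 to 1361 FPKM), with 1 of 8, Nefm, lower. Their part in the lower Kcne1l was not tested.

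Kcnab1, a Kvβ1 subunit that speeds inactivation of Kv1 channels, was higher in KIKO E2 than in WT E2. WT E2 libraries held 10.8, 10.3 and 11.5 FPKM and KIKO E2 libraries 14.0, 17.7 and 15.9 FPKM, with no overlap (log2 change 0.50 ± 0.11, adjusted p = 0.0431). The call was lost without any of WT E2 1, WT E2 2, WT E2 3, KIKO E2 2 and KIKO E2 3, with adjusted p up to 0.265, and in a fit of only the groups compared (0.0550). KIKO oil, at 13.1 to 15.1 FPKM, and ERKO oil, at 14.3 to 15.7 FPKM, also lay above WT oil, at 9.38 to 11.9 FPKM (0.36, adjusted p = 0.266, and 0.43, 0.0614, or 0.0126 without ERKO E2 3). Log2 changes of Kcnab1 with E2, none past the threshold, were -0.01 in WT, 0.13 in KIKO and -0.08 in ERKO (SE 0.11). Exons of A330015K06Rik on the opposite strand overlap Kcnab1.

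Kcnip2, the KChIP2 calcium sensor of Kv4 channels, was higher in KIKO E2, at 27.2, 34.7 and 27.7 FPKM, than in WT E2, at 21.0, 19.1 and 19.3 FPKM. These groups did not overlap (log2 change 0.56 ± 0.12, adjusted p = 0.0442). Leaving out any 1 of these 6 libraries lost the call, with adjusted p up to 0.275, as did the fit with no filter on low values (0.0513) and that with plain variances (0.0575). KIKO oil (27.7, 28.8 and 28.1 FPKM) and ERKO oil (28.1, 27.6 and 28.6 FPKM) both lay above WT oil (24.8, 25.6 and 21.1 FPKM), at changes of 0.24 each that did not pass. The part of endothelial and mural markers, which summed to 69.2 to 89.3 FPKM in KIKO E2 and 98.4 to 115 FPKM in WT E2 with 0 of 7 called and none at 0, was not tested.

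The pore genes of the same A-type channel passed in no comparison with all libraries in the fit. Kcnd2 (Kv4.2) group means ran from 18.2 to 21.4 FPKM. Kcnd3 (Kv4.3) averaged 20.5 ± 3.34 FPKM in WT E2, 16.4 ± 0.939 in KIKO E2 and 14.9 ± 4.42 in ERKO E2 (17.2 without ERKO E2 3), and the E2 libraries of WT overlapped those of both mutants. For ERKO E2 against WT E2, Kcnd3 passed in 1 of 13 alternatives, without ERKO E2 2 (limma, adjusted p = 0.0494). Kcnip4, Kcnip1 and Kcnip3 passed in no comparison with all libraries in the fit.

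Kcna2 (Kv1.2), an axonal channel, held 7.64, 7.33 and 8.21 FPKM in WT E2, 10.4, 12 and 9.08 in KIKO E2 and 11, 12.5 and 9.08 FPKM in ERKO E2. Both mutant groups lay above WT E2 in every library (0.39 ± 0.12, adjusted p = 0.220, and 0.44 ± 0.12, 0.123). Without ERKO E2 3 in the fit both passed, at 0.0473 and 0.0112, and ERKO oil against WT oil at 0.0253. Kcna1 (Kv1.1) and Kcna4 (Kv1.4) had group means of 2.41 to 2.84 and 3.09 to 3.80 FPKM. Among Kv2 and Kv3 pores, Kcnb2 ran from 1.5 to 2.19, Kcnc1 from 27.1 to 30.6 and Kcnc2 from 14.3 to 19.0 FPKM over group means. Without ERKO E2 3 the highest means of Kcnb2 and Kcnc1 were 2.32 and 33.0 FPKM, in ERKO E2.

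The M-current is a slow Kv7 current that holds neurons back from firing, and its genes Kcnq3 and Kcnq5 passed in no comparison. Kcnq5 lay at 1.74 to 1.97 FPKM in all group means. Kcnq3 lay at 2.78 to 4.23 FPKM, with an SE of 0.32 on each change.

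ATP-sensitive channels, which couple firing to the cell's energy state, pair a Kir6 pore with a sulfonylurea receptor. Kcnj11 (Kir6.2) had group means of 4.69 to 5.66 FPKM and Kcnj8 (Kir6.1) of 1.5 to 1.80 FPKM, and neither passed in any comparison. The receptor subunit Abcc8 (SUR1) was higher in KIKO E2 than in WT E2. WT E2 libraries held 2.74, 2.88 and 2.42 FPKM and KIKO E2 libraries 4.91, 5.29 and 4.86 FPKM (0.71 ± 0.15, adjusted p = 0.0339). That call was lost without any 1 of these 6 libraries, with adjusted p up to 0.173. In oil, Abcc8 held 2.84 to 3.37 FPKM in WT and 4.22 to 5.15 in KIKO.

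G protein-gated Kir3 channels carry inhibition by opioid and GABA-B receptors. Kcnj9 (GIRK3) was highest at 18.2 FPKM, followed by Kcnj3 (GIRK1) at 9.63, Kcnj5 (GIRK4) at 5.30 and Kcnj6 (GIRK2) at 4.30 FPKM. Kcnj5 held 3.78, 5.40 and 3.08 FPKM in WT E2 and 6.53, 6.48 and 6.41 in KIKO E2, without overlap (0.58 ± 0.18, adjusted p = 0.196). Kcnj3 and Kcnj6 were widely spread, with SEs of 0.46 and 0.41, and ERKO E2 3 held 1.67 and 0.688 FPKM of them. Kcnj4, a Kir2.3 rectifier, held 4.07, 3.72 and 3.59 FPKM in WT oil and 2.89, 2.38 and 2.15 in WT E2 (-0.47 ± 0.15, adjusted p = 0.228). Its response minus that of WT was 0.64 ± 0.22 in KIKO (adjusted p = 0.697) and 0.69 ± 0.22 in ERKO (0.241). For Kcnk7 it was -0.80 ± 0.23 in KIKO (0.440). Glial Kcnj10 and Kcnj16 ran from 80.8 ± 18.9 to 109 ± 9.58 and from 13.6 to 14.8 FPKM over group means, and the lowest for Kcnj10, that of ERKO E2, was 91.7 FPKM without ERKO E2 3.

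Large-conductance (BK) channels open on calcium and voltage together, and their γ subunits, which are leucine-rich repeat proteins, shift the voltage at which they open. The pore gene Kcnma1 averaged 5.54 ± 2.68 FPKM in WT oil and 5.71 ± 1.20 in WT E2, and Kcnmb4 38.0 ± 2.18 and 37.8 ± 5.70 FPKM. In KIKO oil they averaged 6.78 ± 1.37 and 33.3 ± 0.717 FPKM, and in ERKO oil 9.30 ± 0.864 and 29.6 ± 3.27 FPKM. In ERKO oil against WT oil, Kcnma1 was higher and Kcnmb4 lower past the threshold only without ERKO E2 3 in the fit. Lrrc38, a γ subunit gene outside the Kcn names, held 1.08, 0.997 and 0.823 FPKM in WT oil and 3.51, 5.07 and 3.58 FPKM in WT E2, a rise of 1.35 ± 0.14 (log2 of FPKM + 1, adjusted p = 1.01e-04). In KIKO it held 0.333, 0.181 and 0 FPKM in oil and 0.363, 0.342 and 0.190 after E2. In ERKO it held 0.126, 0.25 and 0.129 FPKM in oil and 0.202, 0.114 and 0.261 after E2. No mutant library reached any WT library. The 0.5 FPKM limit for testing was met by Lrrc38 through WT E2, the group where it was high.

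Lrrc38 was lower in KIKO E2 (-1.95 ± 0.14, adjusted p = 1.64e-06), in ERKO E2 (-2.07 ± 0.14, 7.70e-07) and in ERKO oil (-0.75 ± 0.14, 0.0278) than in WT under the same treatment. KIKO oil gave -0.76 ± 0.14 (adjusted p = 0.103, and 0.0285 without ERKO E2 3). Its rise with E2 in WT passed without each of the 6 libraries in turn and missed the threshold with a pseudocount of 0.1 (1.95, adjusted p = 0.0683). Lrrc55, another γ subunit, had group means of 9.11 to 11.5 FPKM and passed in none of the 9 comparisons.

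**Figure D5:**
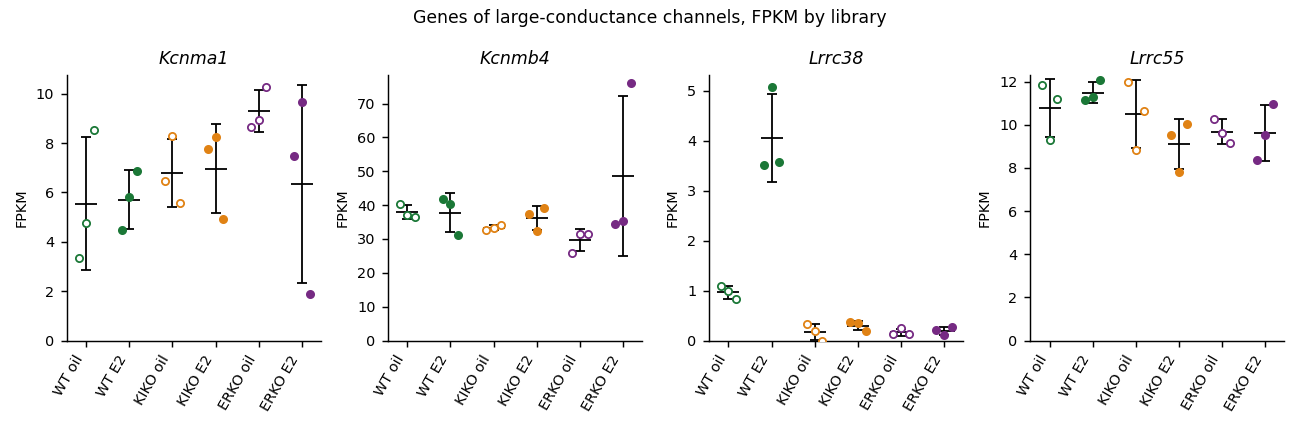
FPKM by library of the BK pore (Kcnma1), a β subunit (Kcnmb4) and 2 γ subunits (Lrrc38 and Lrrc55); open points are oil and filled points E2, with group mean (bar) and SD (whiskers, n = 3). Lrrc38 stands at 3.51 to 5.07 FPKM in WT E2 and below 0.4 FPKM in all mutant libraries, while Kcnmb4 shows the single high ERKO E2 3 library at 76 FPKM.

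Small-conductance (SK) channels shape the afterhyperpolarization that follows spikes. Kcnn2 group means ran from 7.29 to 10.02 FPKM, Kcnn1 from 1.46 to 1.81 and Kcnn3 from 4.41 ± 2.59 to 6.65 ± 0.564 FPKM, and none passed in any comparison with all libraries in the fit. The highest mean of Kcnn2 and the lowest of Kcnn3 were those of ERKO E2, which were 9.38 and 5.91 FPKM without ERKO E2 3. Kcnt1, the sodium-activated channel, held 30.3, 26.7 and 23.1 FPKM in WT oil against 33.9, 36.1 and 34.8 in KIKO oil, without overlap (0.39 ± 0.17, adjusted p = 0.441).

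Beyond the Kcn names, 23 genes of channel partners, the sodium pump and cation-chloride cotransport were listed, of which 22 were tested. After E2, 1 rose in WT (Lrrc38, beside 0.602% of all genes), and 0 changed in KIKO (0.00677%) or ERKO (0%). In ERKO oil 1 was higher, Dpp10, a Kv4 partner (0.50 ± 0.10, adjusted p = 0.0288), and 1 lower, Lrrc38. Of all genes, 0.751% were higher and 0.684% lower in that comparison. The calls of Dpp10 and Lrrc38 were both lost without WT oil 1, WT oil 2 or any ERKO oil library, with adjusted p up to 0.127 and 0.146. In KIKO E2 1 was higher, Abcc8 (0.203% of all genes), and 2 were lower (0.745%), Lrrc38 and Cntnap2, which gathers Kv1 channels beside the node of Ranvier. Cntnap2 held 25.5, 27.3 and 26.9 FPKM in WT E2 and 19.6, 18.7 and 19.8 in KIKO E2 (-0.43 ± 0.09, adjusted p = 0.0374), a call lost without any 1 of these libraries (up to 0.190) and with plain variances (0.0506). In ERKO E2 only Lrrc38 was lower (1.03% of all genes), and in KIKO oil 0 differed (0.0135%). The genes of pump and cotransporter subunits passed in none of the 9 comparisons with all libraries in the fit. Without ERKO E2 3 in the fit, Cntnap2 also rose with E2 in WT, and Adam22 was also higher in ERKO oil. Abcc8 and Adam22 were then higher and Lrrc38 lower in KIKO oil, and Cntnap1 was also higher in KIKO E2. In ERKO E2, Abcc8 and Cntnap1 were then higher and Cntnap2 and Lrrc38 lower. Of all genes, 2.69% passed in that fit for E2 in WT and 22.5% in ERKO oil. The shares were 1.81% in KIKO oil, 4.03% in KIKO E2 and 8.7% in ERKO E2.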

How the data were processed

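Total RNA of 18 arcuate nucleus libraries was sequenced on a HiSeq 2500, per the labels. The deposited tables give FPKM per gene with confidence bounds, which the authors made with TopHat2 2.0 and Cuffdiff on mm10, per the submitters' processing notes; the annotation is not given in the sources used here. FPKM scales by a library total, so a change in abundant transcripts moves all other values. The tables hold 23699 entries for 23235 symbols, which were summed by symbol. Gene positions in the tables lay within 1000 bases of the mm10 start for 4.75% of 20874 symbols, so positions come from GENCODE vM21 and RefSeq.

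Values were tested as log2(FPKM + 1) with limma 3.58.1 (R 4.3.3, group means, trend and robust variances, two-sided) over 14774 genes of a mean of at least 0.5 FPKM, small RNA genes left out, with Benjamini-Hochberg adjustment and a threshold of 0.05. Errors after ± are SD for FPKM and SE for log2 changes, which understate the changes of low genes. Fragments were inferred from the width of the bounds; they came out whole within 0.02 for 70.0% to 71.9% of genes examined, so no count test was run. Python 3.11.15, pandas 2.3.3, scipy 1.17.1 and matplotlib 3.10.9 were also used, and the fit was tested on simulated data. Named genes are those past the threshold, the highest of each subfamily, a panel of channels known in arcuate neurons and the 3 with the smallest p per comparison; others, such as Kcnk4, Kcna3 and Kcnk13, were chosen after their values were seen. Some genes that this rule names are not reported here. The members and lists were chosen with earlier results of these data known. Alternatives were a pseudocount of 0.1, no filter, quantile normalization, plain variances, library weights, a replicate block, fits of only the groups compared, and each library left out.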

Additional observations from a re-analysis of the deposited data

Results flagged for a closer look

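The E2 response of Lrrc38, the BK channel γ subunit gene, differed between WT and each mutant by a test of the difference itself. Lrrc38 met the 0.5 FPKM limit for testing through WT E2, where it averaged 4.05 FPKM. Means in the other groups were 0.168 to 0.967 FPKM. Its entry into the tests was therefore not independent of the group where it was high. The log2 response in KIKO minus that in WT was -1.19 ± 0.20 (limma, adjusted p = 0.0226), and in ERKO minus WT it was -1.32 ± 0.20 (adjusted p = 0.00770). Lrrc38 was higher in 3 of 3 WT E2 libraries than in all WT oil libraries, while oil and E2 libraries overlapped in both mutants. Inferred fragments were 28 to 35 in WT oil, 118 to 158 in WT E2 and at most 17 in the mutant libraries that gave an estimate. The KIKO difference passed in 10 of 20 alternatives and the ERKO difference in 17 of 19. With a pseudocount of 0.1 they were -1.19 (adjusted p = 1.00) and -1.83 (0.280). Neither passed after quantile normalization. Both differences share the WT libraries.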

How the results depend on the processing

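For E2 in WT, 1 Kcn gene passed; quantile normalization gave 2, library weights 2, a fit of only the groups compared 0, leaving out a library 0 to 2, and a fit without ERKO E2 3 gave 3. KIKO oil against WT oil gave 1 in place of 0 with library weights. ERKO oil against WT oil (1) gave 2 after quantile normalization, 2 with plain variances, 11 with weights, 3 with only the groups compared, 0 to 2 with a library left out and 14 without ERKO E2 3. KIKO E2 against WT E2 (3) gave 6 with weights, 2 with no filter, with plain variances and with only the groups compared, 0 to 2 with a library left out and 4 without ERKO E2 3. ERKO E2 against WT E2 (0) gave 1 after quantile normalization, 4 with weights and 0 to 4 with a library left out (4 without ERKO E2 3). The ERKO difference of response (0) gave 0 to 1, with 1 without WT oil 3. In comparisons without the ERKO E2 group, leaving out ERKO E2 3 left the log2 changes as they were, and only the shared estimate of the spread differed. Why the other counts moved was not tested. Over all genes, weights gave 2932 calls in ERKO oil (212 in the main analysis), 1030 in KIKO E2 (140), 1302 in ERKO E2 (192), 351 in KIKO oil (2) and 209 for E2 in WT (116). Only the groups compared gave 1661 in ERKO oil, 13 in ERKO E2 and 71 for E2 in WT, and quantile normalization 430 in ERKO oil. Summing every symbol gave 21.5 FPKM for Kcne in ERKO oil and, for Kcng, 4.67 in KIKO oil, 4.52 in KIKO E2, 3.53 in ERKO oil and 3.71 in ERKO E2. Same-numbered libraries correlated at -0.18 to 0.38, over 0.1 in 4 of 9 pairs, and 7 of 18 libraries correlated best with their own number. Libraries were therefore not treated as paired. With 3 libraries per group, this check cannot exclude a pairing by number. A replicate block gave 1 Kcn gene for E2 in WT, 1 in ERKO oil, 2 in KIKO E2 and 0 elsewhere, and 64 genes in all in ERKO oil. Depth limits Kcnk7 and 2 other genes under 20 inferred fragments.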
